A study of Mus musculus with 6 samples.

Results

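The 8 genes described here encode the sugar carriers best known from the kidney tubule and gut: the sodium-coupled transporters Slc5a1, Slc5a2, Slc5a9 and Slc5a10, and the facilitative transporters Slc2a1, Slc2a2, Slc2a4 and Slc2a5. They were taken by name, with earlier results of these data known, and are 8 of the 54532 genes in the deposited table. All 8 passed the filter on low counts and were among the 16017 genes tested.

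Whole kidneys of male mice on a C57BL/6 background were compared between 2 groups. Control mice carried the KsprtTA transgene alone, in which the Ksp-cadherin promoter drives the doxycycline-dependent activator rtTA in tubule epithelium, proximal tubule and collecting duct included, and their label gives the genotype as WT. KSPAPN mice carried the same KsprtTA transgene together with TRE-adiponectin, which rtTA switches on. All mice, Control included, ate normal chow with doxycycline at 600 mg/kg for 4 days; their age is not given in the sources used here. Each group had 3 libraries, each made from RNA pooled over 3 mice, so the p-values measure the spread between pools and not between single mice. The comparison asks whether 4 days of adiponectin overexpression in the tubule went with a different level of sugar transporter mRNA.

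The kidney filters glucose freely and takes it back in the proximal tubule. Sodium-coupled carriers of the Slc5 family in the brush border move sugar into the cell along the sodium gradient that the basolateral sodium pump maintains, and facilitative carriers of the Slc2 family let it leave toward the blood. In the early proximal tubule (segments S1 and S2) this is the pairing of Slc5a2 (SGLT2) with Slc2a2 (GLUT2), and in the late proximal tubule (S3) that of Slc5a1 (SGLT1) with Slc2a1 (GLUT1). The other members are known for other sugars or tissues: Slc5a9 (SGLT4) and Slc5a10 (SGLT5) for mannose and fructose, Slc2a5 (GLUT5) for fructose and Slc2a4 (GLUT4) for insulin-dependent glucose uptake in fat and muscle.

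Each library held between 17183358 and 20871173 reads counted on genes. Adipoq, the overexpressed gene, had 2, 0 and 2 reads in the Control libraries and 24629, 17483 and 26811 in the KSPAPN libraries. The labels name the tissue as kidney, although their extraction text speaks of liver. Levels are given as FPKM (fragments per kilobase of transcript, scaled to library size, so a level per length). The proximal tubule phosphate transporter Slc34a1 was at 980 to 1368 FPKM in all 6 libraries, and the liver product Alb at 0.275 to 4.46. The summed level of 7 hepatocyte markers was 7.05 to 11.3 FPKM in Control and 3.93 to 13.1 in KSPAPN. Of these, Ahsg, Cps1 and Serpina3k had 0 to 3 reads per library in Control and KSPAPN replicate 1. In KSPAPN replicates 2 and 3 they had 14 to 34. The part of liver RNA in the level of any member was not tested.

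By FPKM, Slc5a2 was the highest of the 8 transporters and Slc5a9 and Slc2a4 were the lowest. The order Slc5a2, Slc5a10, Slc2a5, Slc2a2, Slc5a1 and Slc2a1, from high to low, was the same in all 6 libraries, and Slc2a4 and Slc5a9 followed with Slc2a4 above Slc5a9 in 2 of 6. Several neighbours in this order were not apart in level. The ranges of Slc2a5 and Slc2a2 overlapped in both groups, as did those of Slc2a4 and Slc5a9. Slc5a10 and Slc2a5, and likewise Slc2a2 and Slc5a1, had ranges that were apart in Control and overlapped in KSPAPN.

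With the 21995 protein-coding genes ordered by their group's mean level, Slc5a2 stood at place 398 in Control and 396 in KSPAPN. Slc5a10 stood at place 638 in Control and 835 in KSPAPN, and Slc2a5 at 1254 and 918. The lowest members were still well counted: the counting error in a member's lowest library was at most 4.46%, for Slc2a4. The spread between libraries was larger than this, with a coefficient of variation in Control from 5.98% for Slc2a2 to 20.9% for Slc5a2, and in KSPAPN from 7.17% for Slc2a4 to 29.0% for Slc2a1.

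**Figure D1:**
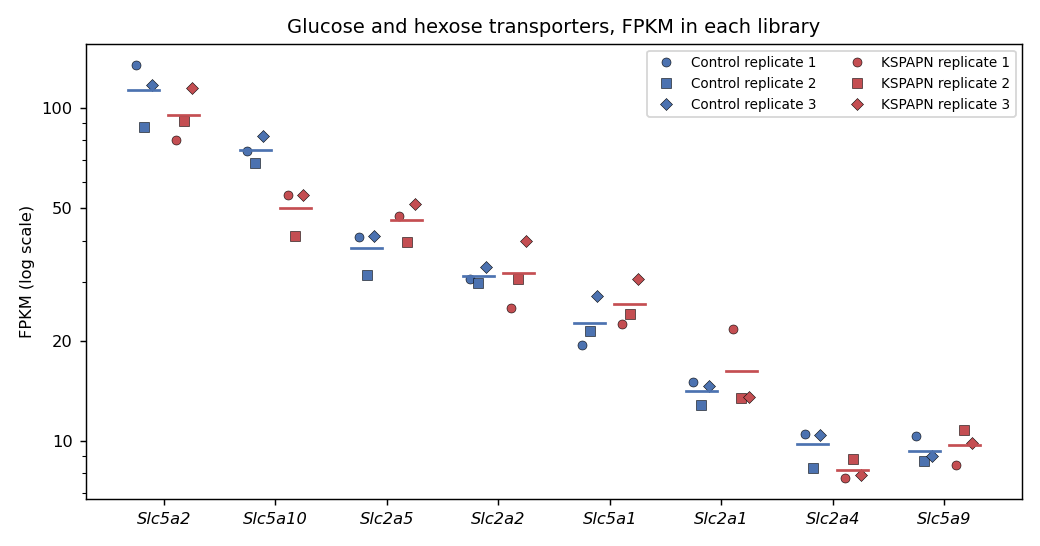
Level of each transporter in each library, as FPKM on a log axis, with blue points for the 3 Control libraries, red points for the 3 KSPAPN libraries and a bar for each group mean. Slc5a10 is the member whose KSPAPN points (41.1 to 54.9) all lie below its Control points (68.1 to 82.4).

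With 3 libraries per group, 1 of the 8 transporters differed between the groups at an adjusted p under 0.05 in edgeR's quasi-likelihood test: Slc5a10, which was lower in KSPAPN. Over all genes tested, 2.65% passed this threshold, 2.25% as lower and 0.393% as higher. No member was higher at that threshold or at an unadjusted p under 0.05, and DESeq2, which called 1.22% of its genes higher, called no member higher. DESeq2 called 1 member lower, Slc5a10 (adjusted p 0.0011), beside 5.11% of its genes. At an unadjusted p under 0.05 in edgeR, 1 of 8 members was lower, against 11.2% of all genes tested, and 7.52% of all genes were higher. Slc5a10 was also the single member whose normalized counts scaled to library size (CPM) did not overlap between groups, where 13.1% of all genes lay entirely lower in KSPAPN and 11.4% entirely higher. The median log2 fold change of the 8 transporters, KSPAPN over Control, was 0.044, beside 0.012 for all genes tested; 5 were above 0 and 3 below.

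Slc5a10 lies on GRCm38 chromosome 11, 61672781 to 61720826, on the minus strand. Its level was 74.5, 68.1 and 82.4 FPKM in Control replicates 1 to 3 and 54.7, 41.1 and 54.9 FPKM in KSPAPN replicates 1 to 3. Every KSPAPN library was below every Control library, and KSPAPN replicate 2 was the lowest. The mean was 75.0 ± 7.13 FPKM (SD, n = 3) in Control and 50.2 ± 7.89 FPKM in KSPAPN. The log2 fold change was -0.57 (SE 0.13, 95% interval -0.86 to -0.28), and the level fell by 32.7%, with an adjusted p of 0.0474. The exact permutation test of FPKM gave p = 0.1, two-sided, the smallest that 3 libraries against 3 allow.

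The call of Slc5a10 was close to the threshold and 5 of the 6 single libraries were needed for it. Without Control replicate 1, 2 or 3 the adjusted p was 0.180, 0.0676 and 0.121, and without KSPAPN replicate 2 or 3 it was 0.0983 and 0.107. Without KSPAPN replicate 1 it was 0.0274. The log2 fold change stayed between -0.64 and -0.43 in all 16 alternatives. The call also ended when libraries were scaled by total counts only (-0.50, adjusted p 0.113) and with a correction for GC content and length (-0.43, adjusted p 0.0803).

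**Figure D2:**
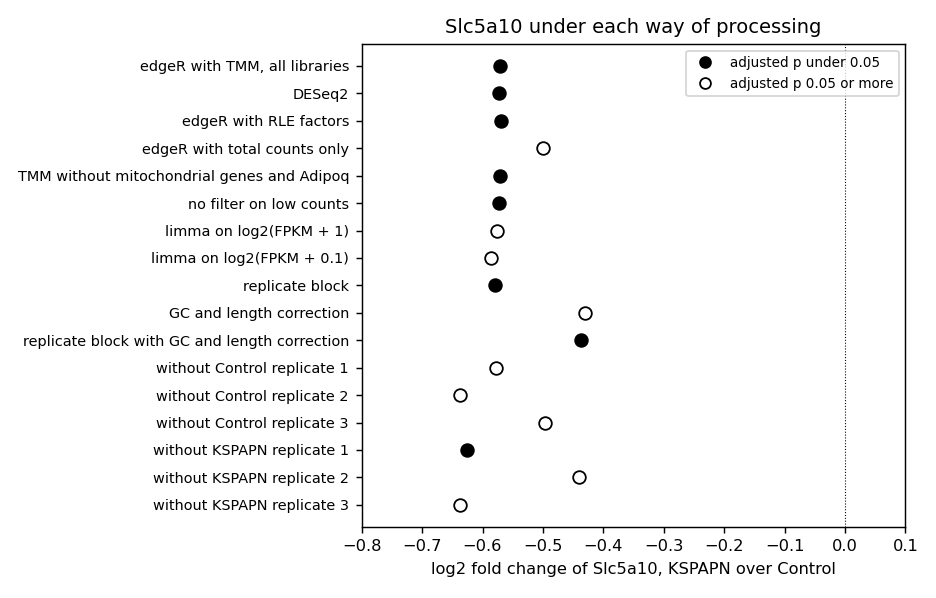
The log2 fold change of Slc5a10, KSPAPN over Control, under the main fit and its 16 alternatives, filled where the adjusted p was under 0.05 and open otherwise. All points lie below 0, and 9 of the 16 alternatives are open.

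The exons of Slc5a10 overlap those of Fam83g and Grap on the opposite strand by 397 bases in all, and 5.55% of its 100-base stretches are shared with Fam83g. Whether reads were counted by strand is not given in the sources used here, so reads from the shared stretches cannot be told apart. Fam83g ranged from 2.95 to 4.01 FPKM and had a log2 fold change of -0.057 (SE 0.14).

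The letters upstream of the starts of Slc5a10 are shown because this gene is the member that differed, beside those of Slc2a2, the GLUT2 gene, which was not called. RefSeq (GRCm38.p6) gave windows of 300 bases, from 250 before to 50 after the start of transcription, for 5 of the 8 members, and Slc5a10 has 2 of these 6 windows; Slc5a2, Slc5a9 and Slc2a4 have no entry. CAAAGTCCA, a motif of HNF4 proteins, was found in 0 of the 6 windows on either strand and in 0.475% of all 32851 promoter windows, and TATAAA, the core of the TATA box, in 1 of 6 (Slc2a1) and in 13.6% of all. For these 2 genes, the bases before each start that no annotated exon covers are printed 5′ to 3′ on the gene's strand. No base is in capitals since neither motif lies in them. For Slc5a10 they come from chr11:61720827-61721049 and, for its second start, chr11:61719998-61720235, both on the minus strand. The stretch before the second start lies within the gene as annotated. For Slc2a2 they come from chr3:28697653-28697902 on the plus strand.
Slc5a10 first start: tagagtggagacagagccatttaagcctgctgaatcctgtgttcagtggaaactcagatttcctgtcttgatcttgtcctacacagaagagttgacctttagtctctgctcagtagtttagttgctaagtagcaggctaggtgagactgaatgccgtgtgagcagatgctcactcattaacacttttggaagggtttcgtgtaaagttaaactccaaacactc
Slc5a10 second start: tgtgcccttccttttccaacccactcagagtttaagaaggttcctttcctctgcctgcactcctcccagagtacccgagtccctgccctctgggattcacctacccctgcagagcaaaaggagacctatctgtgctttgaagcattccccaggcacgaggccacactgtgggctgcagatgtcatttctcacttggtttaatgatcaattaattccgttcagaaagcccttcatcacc
Slc2a2: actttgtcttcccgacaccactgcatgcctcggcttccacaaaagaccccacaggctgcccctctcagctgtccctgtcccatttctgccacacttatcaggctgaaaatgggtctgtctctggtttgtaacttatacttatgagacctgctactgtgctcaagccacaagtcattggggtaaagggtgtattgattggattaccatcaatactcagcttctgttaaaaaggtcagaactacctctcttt

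Slc5a2, the carrier that takes back most filtered glucose and the target of the gliflozin drugs, was at 135, 88.0 and 117 FPKM in Control replicates 1 to 3 and at 80.1, 91.3 and 115 in KSPAPN replicates 1 to 3. The groups overlapped, and the Control libraries alone spanned nearly the whole range. The mean was 113 ± 23.7 FPKM in Control and 95.3 ± 17.5 in KSPAPN, a log2 fold change of -0.25 (SE 0.17, 95% interval -0.61 to 0.12, adjusted p 0.462). The interval covers no change as well as a fall of up to 0.61 on the log2 scale. With the correction for GC content and length, the log2 fold change was -0.086 (adjusted p 0.826). Slc5a2 (chromosome 7, 128265657 to 128272430, plus strand) overlaps BC017158 on the opposite strand by 597 exonic bases, 18.4% of its 100-base stretches; BC017158 was at 4.41 to 4.95 FPKM and had a log2 fold change of 0.03.

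Slc5a1, the high-affinity glucose and galactose carrier of the late proximal tubule and small intestine (chromosome 5, 33104219 to 33162870, plus strand), was at 19.5, 21.3 and 27.2 FPKM in Control and at 22.4, 24.1 and 30.6 in KSPAPN. The groups overlapped, and replicate 3 was the highest library of each. The means were 22.7 ± 4.02 and 25.7 ± 4.30 FPKM, and the log2 fold change was 0.19 (SE 0.15, 95% interval -0.14 to 0.51, adjusted p 0.534).

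Slc5a9 (chromosome 4, 111875375 to 111902918, minus strand) had 994, 783 and 821 reads in Control and 1021, 1025 and 1059 in KSPAPN. Scaled to 9.36 ± 0.871 and 9.71 ± 1.19 FPKM, it gave a log2 fold change of 0.057 (SE 0.11, 95% interval -0.19 to 0.30, adjusted p 0.825). Its groups overlapped, and its direction turned when single libraries were left out, between -0.020 and 0.16. Of the 3 mannose and fructose carriers among the members (Slc5a9, Slc5a10 and Slc2a5), Slc5a10 is therefore the one with a call.

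Of the facilitative carriers, Slc2a5, the fructose carrier of the brush border, had the largest positive log2 fold change among the 8 members. It was at 40.9, 31.6 and 41.3 FPKM in Control and at 47.4, 39.6 and 51.5 in KSPAPN. KSPAPN replicates 1 and 3 were above every Control library, while KSPAPN replicate 2 lay within the Control range. The means were 37.9 ± 5.49 and 46.2 ± 6.05 FPKM, and the log2 fold change was 0.29 (SE 0.13, 95% interval -0.0015 to 0.58, p 0.0510 before and 0.270 after adjustment). With a replicate block and a correction for GC content and length it was 0.38, with an adjusted p of 0.0251. The gene lies on chromosome 4, 150119283 to 150144169, on the plus strand.

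Slc2a2, through which glucose leaves proximal tubule cells and hepatocytes (chromosome 3, 28697903 to 28731359, plus strand), was at 30.6, 29.9 and 33.4 FPKM in Control and at 25.1, 30.6 and 39.9 in KSPAPN. The KSPAPN libraries lay on both sides of the narrow Control range. The mean was 31.3 ± 1.87 FPKM in Control and 31.9 ± 7.51 in KSPAPN, with a log2 fold change of 0.031 (SE 0.15, 95% interval -0.29 to 0.35, adjusted p 0.936). With the GC and length correction it was -0.11, so the data give no stable direction for this gene.

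Slc2a1, the widely expressed basal glucose carrier (chromosome 4, 119108711 to 119137983, plus strand), was at 15.01, 12.8 and 14.6 FPKM in Control and at 21.7, 13.5 and 13.6 in KSPAPN. KSPAPN replicate 1 stood above the other 5 libraries, which lay close together. The log2 fold change was 0.21 (SE 0.18, 95% interval -0.18 to 0.60, adjusted p 0.573), and without KSPAPN replicate 1 it was -0.050. In that library the collecting duct water channel Aqp2 was at 537 FPKM, against 227 to 356 in the other 5. The other markers of the thick ascending limb and distal nephron did not all go with Aqp2 in KSPAPN replicate 1. Umod and Slc12a1 were also at their highest there, while Slc12a3 and Atp6v1g3 (21.2 FPKM) were at their lowest. Aqp3 (48.8 FPKM), Scnn1g (15.4 FPKM) and Calb1 lay within the range of the other 5 libraries. The summed FPKM of 5 red cell genes was also highest in KSPAPN replicate 1, at 263, against 108 to 199 in Control and from 135 up in KSPAPN. The part of the distal nephron or of red cells in the Slc2a1 level was not tested.

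Slc2a4, the insulin-dependent carrier of fat and muscle (chromosome 11, 69942539 to 69948188, minus strand), was at 10.5, 8.32 and 10.4 FPKM in Control and at 7.73, 8.82 and 7.92 in KSPAPN. KSPAPN replicate 2 lay above Control replicate 2, so the groups overlapped. The means were 9.76 ± 1.25 and 8.16 ± 0.585 FPKM, and the log2 fold change was -0.25 (SE 0.12, 95% interval -0.52 to 0.013, adjusted p 0.289). Of 6 adipocyte markers, 3 passed the filter on low counts, and the summed level was 8.84 to 9.15 FPKM in Control and 9.34 to 12.9 in KSPAPN. Most of this was Fabp4, a fatty acid binding protein of adipocytes, endothelium and macrophages, at 7.78 to 8.46 FPKM in Control and 8.48 to 12.2 in KSPAPN (log2 fold change 0.34, adjusted p 0.209). The other 2 that passed went the other way, with log2 fold changes of -0.21 for Plin4 (adjusted p 0.787) and -0.11 for Cidec (adjusted p 0.939). The fat droplet gene Plin1 reached at most 0.118 FPKM, and Lep had no reads in 5 of the 6 libraries. Of 5 striated muscle markers, Mylpf was the 1 that passed, at 0.711 to 1.08 FPKM, while the muscle creatine kinase Ckm had no reads in 5 libraries. The part of fat or muscle in the Slc2a4 level was not tested.

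Ratios of members within a library do not depend on the factor by which each library is scaled. They can still shift under a correction for GC content and length, which differs by gene and was not applied to them. With that correction the log2 fold change was -0.086 for Slc5a2, -0.11 for Slc2a2 and 0.17 for Slc5a1. Of 5 ratios compared by two-sided exact permutation tests, none passed an adjusted p of 0.05, and none could, since the smallest p here is 0.1. Slc5a1 relative to Slc5a2 was the ratio without overlap: 0.144, 0.243 and 0.232 in Control and 0.280, 0.264 and 0.267 in KSPAPN. On the log2 scale it was -2.32 ± 0.42 in Control and -1.89 ± 0.043 in KSPAPN, a difference of 0.43 (exact p = 0.1, adjusted over the 5 ratios 0.375). Control replicate 1, with the highest Slc5a2 level, was farthest from the other libraries, and without it the difference was 0.19.

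Slc5a10 relative to Slc5a2 was 0.552, 0.774 and 0.702 in Control and 0.683, 0.450 and 0.479 in KSPAPN, with a log2 difference of -0.34 (exact p = 0.2, adjusted 0.375). So KSPAPN replicate 1, in which both genes were low, lay within the Control range of this ratio. The early-tubule pairing of Slc5a2 to Slc2a2 differed by -0.25 on the log2 scale (exact p = 0.3) and the late-tubule pairing of Slc5a1 to Slc2a1 by 0.021 (exact p = 1.0). Slc2a5 relative to Slc2a2 was 1.34, 1.06 and 1.24 in Control and 1.89, 1.29 and 1.29 in KSPAPN, a log2 difference of 0.29 (exact p = 0.3).

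**Figure D3:**
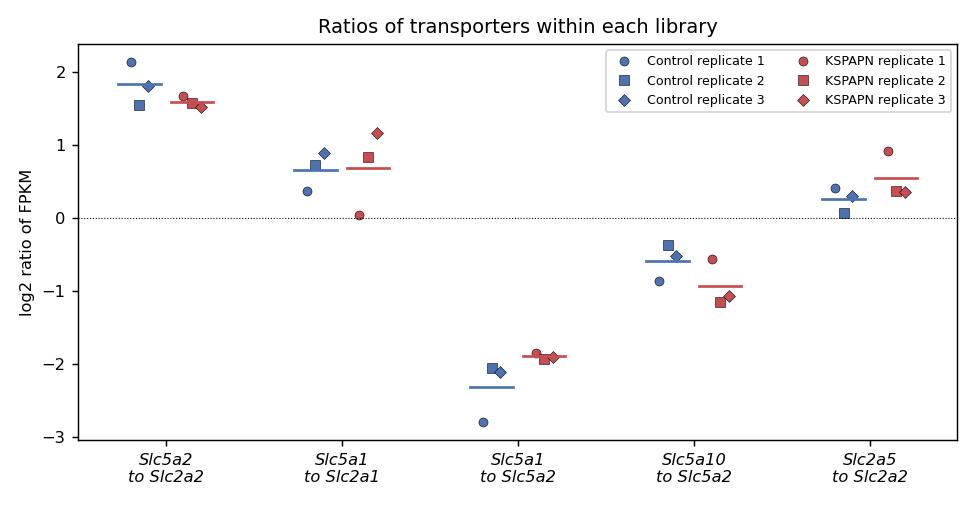
The log2 ratio of FPKM for 5 pairs of transporters in each library, Control in blue and KSPAPN in red, with bars for group means. For Slc5a1 to Slc5a2 the KSPAPN points cluster near -1.89 above the Control points, and the other 4 pairs overlap.

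The other genes of sugar transport and of the first steps of sugar use were described from 6 lists with 40 genes, of which 34 were tested. In edgeR 0 of the 34 were higher and 0 lower at an adjusted p under 0.05, beside 0.393% and 2.25% of all genes. DESeq2 called 6 lower of the 30 to which it gave an adjusted p, beside 5.11% of the 14588 genes it tested in all. At an unadjusted p under 0.05, 1 was higher and 6 were lower, shares to be read beside the 7.52% and 11.2% of all genes. The CPM of 2 of the 34 lay entirely above in KSPAPN and of 7 entirely below, beside 11.4% and 13.1% of all genes. The median log2 fold change over the 34 was -0.081.

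The Slc5 relatives of the members held the genes with the lowest p. Slc5a11, a sodium-coupled inositol carrier, was at 21.2 ± 2.84 FPKM in Control and 12.8 ± 3.26 in KSPAPN, a log2 fold change of -0.72 (SE 0.17, adjusted p 0.0562). Slc5a8, which carries lactate and other monocarboxylates, was at 52.1 ± 4.40 and 35.3 ± 7.15 FPKM, with -0.56 (SE 0.14, adjusted p 0.0643). With the correction for GC content and length, Slc5a8 was at -0.71 (adjusted p 0.0151) and Slc5a11 at -0.59 (adjusted p 0.117). Both had Control and KSPAPN libraries that did not overlap. Slc5a12, the other lactate carrier, gave 0.10 (SE 0.25, adjusted p 0.864), and its KSPAPN libraries ranged from 23.2 to 55.5 FPKM. Slc5a3, an inositol carrier regulated by osmolality, lay above Control in every KSPAPN library, at 23.4 ± 1.26 against 19.4 ± 1.82 FPKM, and its log2 fold change was 0.28 (SE 0.097, adjusted p 0.160). The Slc2 relatives with the highest levels were near 0 in fold change, with 0.015 for Slc2a8 (SE 0.18) and -0.036 for the urate carrier Slc2a9 (SE 0.17).

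Among known regulators, Pdzk1ip1, whose product MAP17 is an accessory subunit of SGLT2, was at 233 ± 7.31 FPKM in Control and 180 ± 24.0 in KSPAPN, a log2 fold change of -0.37 (SE 0.10, adjusted p 0.0953). Every KSPAPN library was below every Control library. With the correction for GC content and length, Pdzk1ip1 was at -0.16 (adjusted p 0.475). Hnf4a, a transcription factor of the proximal tubule and liver, gave 0.034 (SE 0.11, adjusted p 0.905).

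Of the sodium pump, the beta subunit Atp1b1 had a log2 fold change of -0.067 (SE 0.10). Its regulatory subunit Fxyd2 was at 497 ± 41.9 FPKM in Control and 383 ± 25.7 in KSPAPN, with -0.37 (SE 0.11, adjusted p 0.107). Sord, which makes fructose from sorbitol, was at 618 ± 51.7 and 453 ± 57.7 FPKM, with -0.44 (SE 0.12, adjusted p 0.0803). Khk, which phosphorylates fructose, gave -0.21 (SE 0.098, adjusted p 0.281) with no overlap between groups. For glucose release, Slc37a4, the glucose 6-phosphate carrier of the endoplasmic reticulum, gave -0.017 (SE 0.095). G6pc, the phosphatase that frees glucose, gave -0.52 (SE 0.28, adjusted p 0.348), with 64.1, 79.8 and 162 FPKM in KSPAPN against 123 to 162 in Control. Without KSPAPN replicate 3, its highest KSPAPN library, it was -1.02 (adjusted p 0.0364). Leaving out any other single library gave -0.64 to -0.26, with adjusted p from 0.470 to 0.593.

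**Figure D4:**
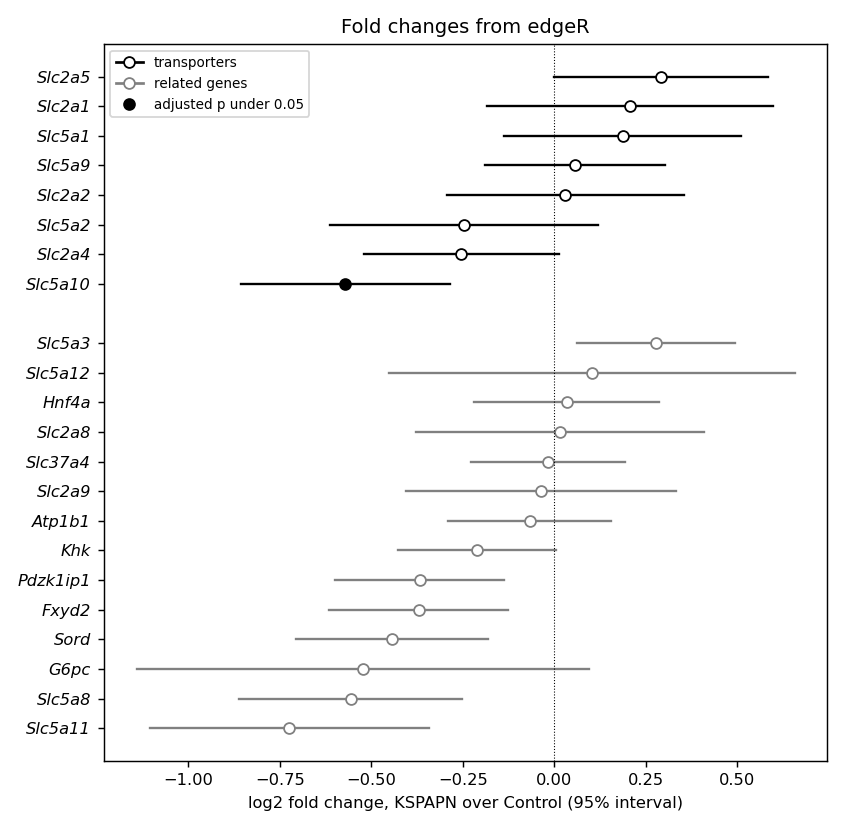
Log2 fold changes, KSPAPN over Control, from edgeR with 95% intervals for the 8 transporters (black) and 14 named genes of the related lists (grey), filled where the adjusted p was under 0.05. Slc5a10 is the filled point, at -0.57, and the intervals of the other 7 transporters include 0.

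Levels of nephron segment markers are given beside those of Slc5a10. In a whole kidney, fewer cells of a type and less of an mRNA per cell cannot be told apart. All 10 S1 and S2 markers had a negative log2 fold change (median -0.27), as did 7710 of all 16017 genes tested. Of the 10, 1 (Slc22a6) was lower at an adjusted p under 0.05, beside 2.25% of all genes. The summed level of the 10 was 2000 to 2297 FPKM in Control and 1723 to 1931 in KSPAPN. The largest part was Slc34a1, with means of 1212 and 1085 FPKM and a log2 fold change of -0.15. All 7 S3 markers had a negative log2 fold change (median -0.43). At an adjusted p under 0.05, 3 of 7 were lower, beside the same 2.25% of all genes: Cyp7b1 (-2.10), Slc22a7 (-1.68) and Slc7a13 (-1.46). The summed level of the 7 was 1514 to 1901 FPKM in Control and 1081 to 1476 in KSPAPN. The largest part was Slc27a2, with means of 958 and 943 FPKM. The S3 markers nearest to 0, Slc27a2 and Acsm3, had log2 fold changes of -0.018 and -0.051. Of 8 markers of the thick ascending limb and distal nephron, 5 had a positive log2 fold change and 3 a negative one. At an adjusted p under 0.05, 1 was higher, Slc12a1 (0.52, adjusted p 0.044), beside 0.393% of all genes. At an unadjusted p under 0.05, 2 were lower: Slc12a3 (-0.36, adjusted p 0.207, no overlap between groups) and Aqp3 (-0.32, adjusted p 0.196). At that threshold 3 of the 10 S1 and S2 markers and 4 of the 7 S3 markers were lower. These shares are to be read beside the 11.2% of all genes. The summed level of the 8 markers of the thick ascending limb and distal nephron was 1356 to 1554 FPKM in Control and 1310 to 1866 in KSPAPN. The part of these markers in the level of any member was not tested.

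The genes whose pattern over the 6 libraries was most like that of the 2 highest members were listed as a description, among 11161 protein-coding genes with a mean of at least 1 FPKM. Likeness was the Pearson correlation of log2 CPM, with libraries of both groups as points. Genes that differ between the groups in the same direction therefore tend to score high with each other. For Slc5a2 they were Stk16 (0.974), Blnk (0.967) and Egf (0.967), and 37 genes exceeded 0.9. For Slc5a10 they were Dnpep (0.995), Abtb1 (0.989) and Lsm4 (0.988), and 162 genes exceeded 0.9.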

How the data were processed

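Whole-kidney mRNA was sequenced in 3 Control and 3 KSPAPN libraries, each a pool of 3 mice. The authors enriched mRNA with oligo(dT) and deposited, for each gene, a raw read count and an FPKM per library. The submitters' processing notes list STAR 2.5, TopHat, HTSeq 0.6.1, DESeq2 and edgeR, with no role. The sources used here do not give the build, annotation, strandedness or FPKM library total. Identifiers were matched to GENCODE M21 (GRCm38; 54495 of 54532 genes) for symbols and coordinates.

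Groups were compared with edgeR 4.0.16 (R 4.3.3): TMM factors, filterByExpr with a minimum count of 10 and a minimum total of 15, a two-sided quasi-likelihood test and Benjamini-Hochberg adjustment over the 16017 genes tested. Fold changes, p-values and intervals came from this fit, and levels from the deposited FPKM. Ratios were compared by exact permutation over libraries. The alternatives were DESeq2 1.42.0, limma 3.58.1 on log2 FPKM, other scaling, no filter, GC and length correction, a replicate block and each library left out. Scripts were tested on simulated data.

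The members, lists and tests were chosen with earlier results of these data known. Named were the members, Adipoq, list genes at an adjusted p under 0.05, list genes at an unadjusted p under 0.05 without overlap, the 2 highest of each list by FPKM, the 3 genes most like each of the 2 highest members, and marker genes whose value stands beside a result; Slc5a10's and Slc5a2's overlapping genes and genes near 0 were named after their values were seen. Some genes that this rule takes are not reported here. Counting errors cover counting only, since reads carry no molecular identifiers.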

Additional observations from a re-analysis of the deposited data

How the results depend on the processing

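Of the 128 values that 16 alternatives gave for the 8 members, 112 kept their direction and side of the threshold. Slc5a10 stayed lower in all 16 and passed an adjusted p of 0.05 in 7; it did not pass with total counts only (-0.50), limma on log2 FPKM with a pseudocount of 1 (-0.58) or 0.1 (-0.59) or GC and length correction (-0.43), and with 1 library left out it lay between -0.64 and -0.44. The direction of Slc2a2 turned with GC correction (-0.11), with the block as well (-0.12), and with libraries left out (-0.16 to 0.19); with libraries left out it also turned for Slc5a9 (-0.020 to 0.16), Slc2a1 (-0.050 to 0.33) and the ratio of Slc5a1 to Slc2a1 (-0.22 to 0.34). The cause was not tested.

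The members called lower numbered 0 under those 4 settings and 0 to 1 with a library left out. The replicate numbers of the groups share only a number: deviations of same-numbered libraries correlated at 0.0537, 0.154 and 0.173. With these numbers as a replicate block Slc5a10 was at -0.58 (adjusted p 0.0132), and with the GC correction as well Slc2a5 became the 1 member called higher (0.38).

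Of all genes tested, 63 were higher and 361 lower. The higher and lower counts were 178 and 746 with DESeq2, 301 and 1038 without a filter, 10 and 118 with limma at a pseudocount of 1, 10 and 109 at 0.1, and 224 and 705 with the block. GC correction gave 97 higher, GC correction with the block 187 higher, and total counts 195 lower. Leaving out a library gave 5 to 162 higher and 34 to 571 lower. The related genes called lower numbered 6 with DESeq2, 7 without a filter, 4 with the block, 1 with GC correction, 1 with both, and 0 to 2 with a library left out.

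For related genes, 183 of 224 values kept direction and call. Sizes moved too with GC correction, to -0.16 for Pdzk1ip1, -0.21 for Fxyd2, 0.12 for Slc5a3 and -0.71 for Slc5a8. The direction turned with GC correction, alone and with the block, for Atp1b1 (0.00097, 0.0035), Khk (0.013, 0.019), Slc2a9 (0.030, 0.018) and Slc37a4 (0.12, 0.12), for Slc5a12 with both (-0.037), and with total counts for Slc2a9 (0.027) and Slc37a4 (0.052). With a library left out it turned for Hnf4a (-0.066 to 0.15), Slc2a8 (-0.15 to 0.16), Slc2a9 (-0.16 to 0.13), Slc37a4 (-0.083 to 0.027) and Slc5a12 (-0.14 to 0.41). Over all genes the median log2 fold change was 0.012, moving to 0.081 with total counts and to 0.043 with GC correction. With 3 pools per group, an exact test of 1 value cannot pass 0.05.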

Other observations

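Some of the listed relatives were not tested because of low counts. Slc5a7, the neuronal choline carrier, and Rsc1a1, known as a regulator of Slc5a1, had 0 reads in all 6 libraries. Slc2a7, Slc5a4b and the thyroid iodide carrier Slc5a5 had between 0 and 6 reads per library. Slc2a10 was low as well, at 0.145 to 0.227 FPKM in Control and 0.277 to 0.351 in KSPAPN, without overlap, with a log2 fold change of 0.75 (SE 0.39, adjusted p 0.334).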
